A study of Mus musculus with 6 samples.

Results

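Polycomb proteins, DNA methyltransferases and other regulators of chromatin were followed here as a group of 41 genes, chosen by name, out of the 19937 mouse genes measured. A gene was matched by its symbol in the array's probe annotation, through probe sets (groups of array probes for one transcript) that carry a single symbol, and the brightest such probe set, by its mean in the 6 arrays, stood for it. All 41 were measured, and the mean level of all 41 lay above that of the median gene. The cells were Thy1.2+ thymocytes, purified with magnetic beads from the thymi of E17.5 Rag1-/- mouse embryos, and RNA was measured on 1-colour whole-transcript arrays. The first group was fresh, taken at 0 h without stimulation (n = 2). The second had received 40 h of anti-CD3 with DMSO, the solvent (n = 2). The third had received 40 h of anti-CD3 with 50 µM 79-6, an inhibitor of the transcriptional repressor Bcl6 (n = 2). All 3 groups lack Rag1, which is needed to rearrange the T cell receptor genes, so thymocytes stop at the DN3 stage and anti-CD3 stands in for the missing receptor signal. The series design speaks of fetal thymus organ cultures and sorted cells, the sample labels of stimulation and magnetic purification, and neither says whether replicates came from separate litters or cultures. The p-values therefore measure only the spread between these arrays.

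Polycomb repressive complex 2 (PRC2) places the repressive mark H3K27me3 on histone H3, and Polycomb repressive complex 1 (PRC1) binds that mark and adds ubiquitin to histone H2A. DNA methyltransferases place and copy methyl groups on cytosine, and TET enzymes oxidise them. In thymocytes these systems are known for keeping genes of other lineages silent while cells pass the DN3 checkpoint, divide and mature. Histone demethylases, deacetylases, acetyltransferases and remodelling complexes act on the same nucleosomes.

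Values are log2 of the deposited array intensity, so a difference of 1 is a doubling, and levels of different probe sets are not compared. Across genes, the 2 arrays of a group correlated at 0.9977 for fresh, 0.9975 for DMSO and 0.9968 for 79-6, and the median gap between replicates was 0.055, 0.065 and 0.072 for the 41 regulators. Array medians lay between 99.3 and 103.6 in intensity. Rag1 itself read 11.51 and 11.42 in fresh cells, 11.14 and 11.09 with DMSO and 10.85 and 10.82 with 79-6 on the log2 scale. No array of cells with intact Rag1 is at hand, so its signal does not check the genotype. Thy1, the gene of the selected surface protein, read between 12.78 and 13.26. Of 10 T-lineage genes measured, 3 rose and 5 fell from fresh to DMSO.

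The first comparison, DMSO against fresh, holds 40 h, culture, solvent and anti-CD3 together. In it 12 of the 41 regulators rose and 7 fell, while 22 did not pass the test. Those that rose were PRC2 subunits (Ezh2, Suz12, Eed, Jarid2, Phf19), PRC1 subunits (Cbx2, Cbx7, Cbx8, Rnf2), the deacetylases Hdac7 and Sirt1, and Tet2. Those that fell were Dnmt3b, Uhrf1, Tet1, Mtf2, Kmt2a, Smarca4 and Kat2b. The fall of Dnmt3b, 3.62-fold, was the largest change among the 41 and the only one beyond 2-fold. A gene was called when limma's adjusted p, by the Benjamini-Hochberg method over all 19937 genes, was under 0.05. The 19 calls are 46.3% of the regulators, against 19.6% of all genes. Higher calls made up 29.3%, against 8.89% of all genes, and lower calls 17.1%, against 10.7%. Brighter genes were called more often, with 27.3% of the 13750 genes at a log2 of 6 or more in at least 2 arrays. Of these 13750 genes, 12.4% were called higher and 14.9% lower, and the regulators' 17.1% lower lies near the latter. The median change was 0.11 over the regulators and 0.017 over all genes. Both DMSO arrays lay above both fresh arrays for 23 regulators (31.9% of all genes) and below both for 11 (28.1% of all genes).

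With every array centred on one median, calls of the 41 split into 15 higher and 5 lower, in place of 12 and 7, and those of all genes into 2388 and 1716, in place of 1773 and 2129. Higher calls thus went from 63.2% to 75.0% of the regulators' calls and from 45.4% to 58.2% of all calls. Centring moved every change in this comparison by 0.059. The count rests on all 4 arrays of the comparison. It was 7 without either fresh array and 9 without either DMSO array, when 11.5% to 11.9% of all genes were called. Calls of Dnmt3b, Smarca4, Kmt2a, Cbx7, Hdac7 and Sirt1 held without any single array. Eed, Suz12, Jarid2, Cbx2, Cbx8, Uhrf1 and Kat2b were not called when any one of the 4 was left out. Ezh2, Rnf2 and Tet1 needed both fresh arrays and DMSO replicate 1 to be called, and Tet2 both fresh arrays and DMSO replicate 2. The call of Mtf2 needed fresh replicate 1 and DMSO replicate 2, and that of Phf19 replicate 2 of either group. The highest adjusted p of these 13 in such limma fits ran from 0.0536 (Mtf2) to 0.202 (Kat2b).

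The second comparison, 79-6 against DMSO at 40 h, asks what the inhibitor changed. In it 3 of the 41 regulators fell and none rose. These were Mtf2, a PRC2 partner, Cbx2, a PRC1 subunit, and Uhrf1, which brings Dnmt1 to newly copied DNA. The share called was 7.32%, against 4.36% of all genes and 6.10% of the 13750 brighter genes. No regulator was called higher, against 2.38% of all genes, and 7.32% were called lower, against 1.98% of all genes and 2.84% of the brighter ones. At an unadjusted p under 0.05, limma gave 1 regulator higher (Ezh1) and 16 lower. No share of all genes is given at that threshold, so these counts are not read as an excess. Of the 38 uncalled regulators 33 lay below 0, and with the 3 called ones 36 of 41 did, at a median change of -0.13. Over all genes 8933 of 19937 were below 0 and the median was 0.020, and of the 13750 brighter genes 48.5% were below 0. Both 79-6 arrays lay below both DMSO arrays for 24 regulators (22.2% of all genes) and above both for 4 (26.8% of all genes). After centring, 37 of the 41 were below 0 and 5 were called, all lower, while calls of all genes went from 475 higher and 394 lower to 456 and 684 (54.7% to 40.0% higher). Centring moved every change in this comparison by -0.051, which took the median of all genes from 0.020 to -0.031. No call held without DMSO replicate 1 or DMSO replicate 2, and only that of Mtf2 held without any other single array, when 0.466% to 3.32% of all genes were called.

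**Figure D1:**
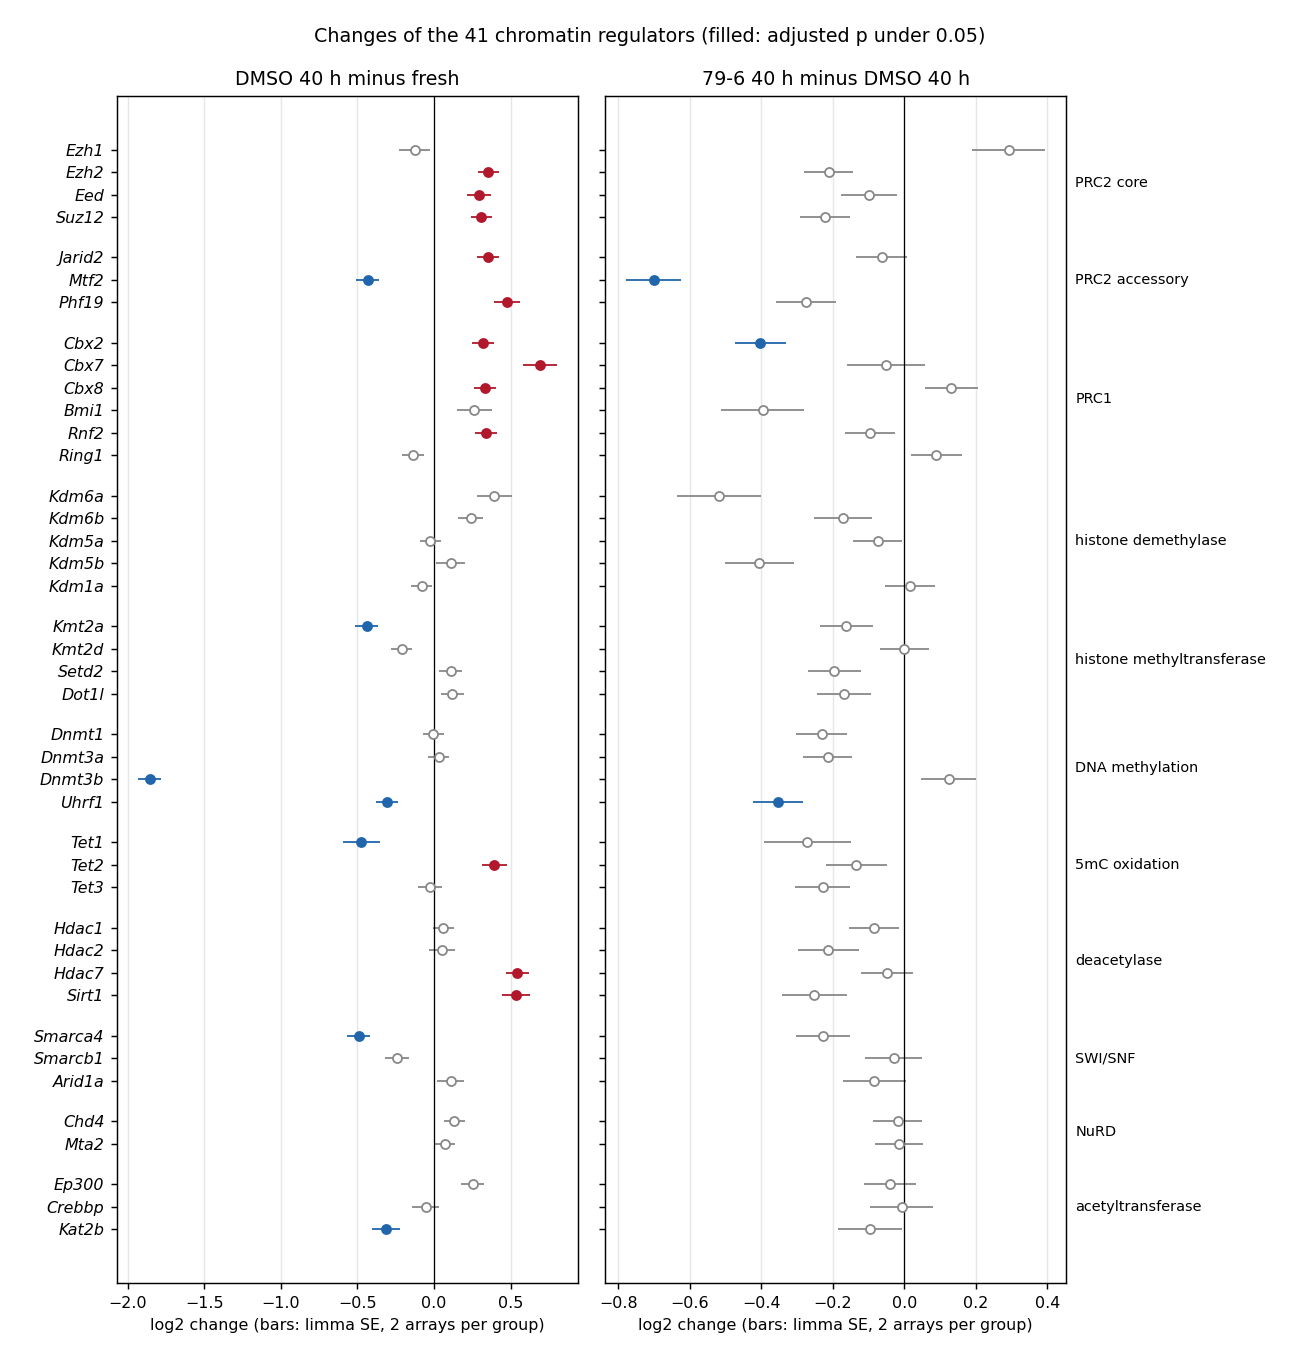
Log2 change of each of the 41 regulators, ordered by role, for DMSO minus fresh and 79-6 minus DMSO, with limma standard errors as bars and filled points for an adjusted p under 0.05. In the first comparison 12 filled points lie above 0 and 7 below, with Dnmt3b far to the low side, and in the second 3 filled points lie below 0.

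The third comparison, 79-6 against fresh, shares its arrays with the other two and is given beside them. It called 15 regulators, 36.6% of the 41 against 26.0% of all genes and 35.6% of the 13750 brighter genes. Cbx7, Hdac7, Cbx8, Jarid2 and Rnf2 were higher, which is 12.2% against 12.0% of all genes and 16.0% of the brighter ones. Dnmt3b, Mtf2, Tet1, Smarca4, Uhrf1, Kmt2a, Kat2b, Smarcb1, Tet3 and Dnmt1 were lower, which is 24.4% against 13.9% and 19.6%. Dnmt1, Tet3 and Smarcb1 were called in neither other comparison. Over all 3 comparisons 22 regulators were called at least once and 19 never. Without single arrays, 9 of the 15 calls held throughout. Those of Jarid2 and Kat2b needed both fresh arrays and 79-6 replicate 2. Rnf2 and Dnmt1 were lost without any one of the 6 arrays, and Tet3 and Smarcb1 without any but 79-6 replicate 2. Counts of calls without single arrays are given further below, beside those of all genes.

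**Figure D2:**
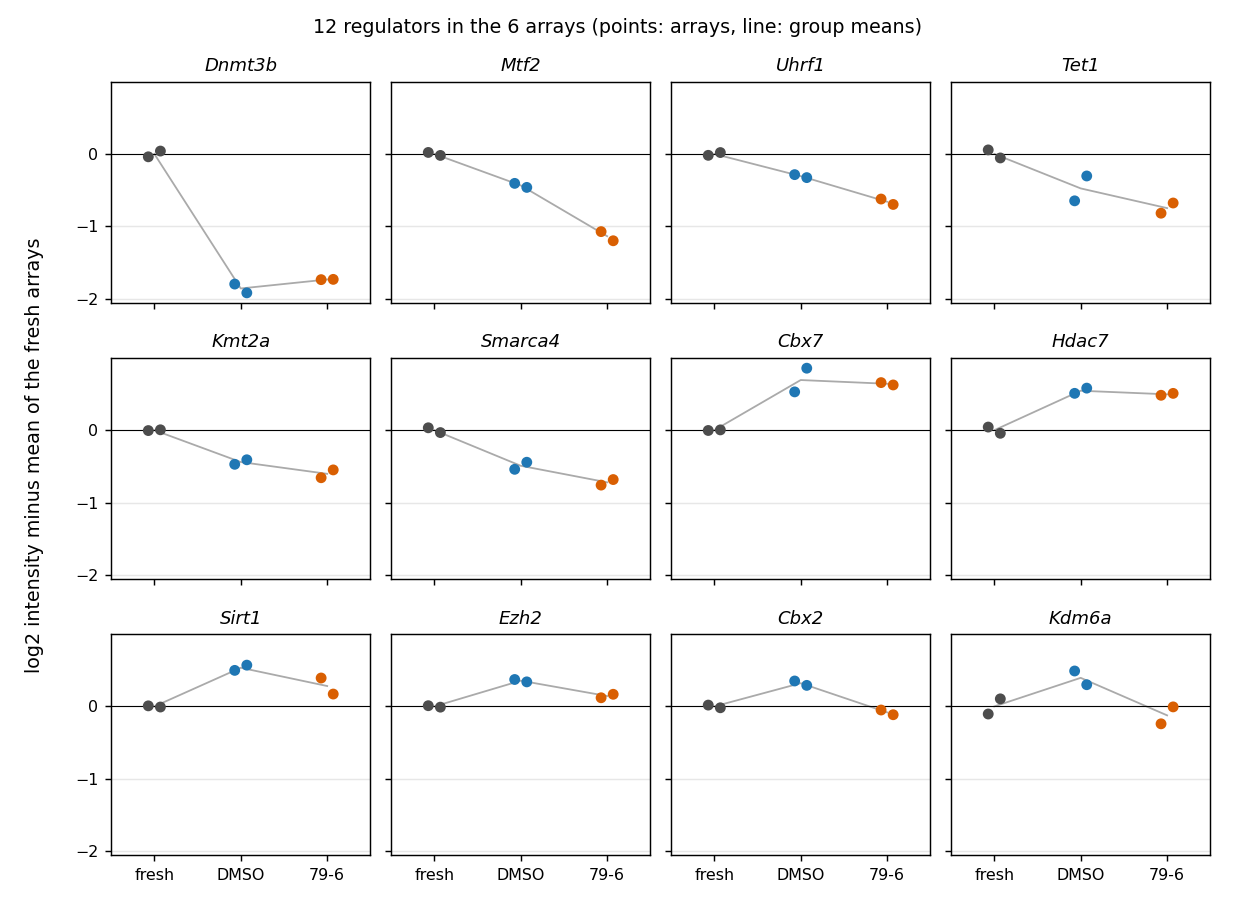
Log2 intensity of 12 regulators in each of the 6 arrays, minus that gene's mean over the fresh arrays. Dnmt3b sits far below 0 in all 4 cultured arrays, Mtf2 and Uhrf1 step down from fresh to DMSO and again to 79-6, and Cbx7 and Hdac7 lie above 0 in all 4 cultured arrays.

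PRC2 has a core of a methyltransferase, Ezh2 or its relative Ezh1, with Eed, which binds H3K27me3, and Suz12, which holds the complex together. In DMSO 3 of the 4 core genes rose. Ezh2 measured 12.29 and 12.27 in fresh cells, 12.65 and 12.62 with DMSO and 12.40 and 12.45 with 79-6. Its DMSO arrays were the highest and its fresh arrays the lowest, with no overlap between the 3 groups. The change of Ezh2 was 0.36 ± 0.069 (SE) from fresh to DMSO (1.28-fold, limma adjusted p = 0.0107) and -0.21 ± 0.069 from DMSO to 79-6 (adjusted p = 0.141). Suz12 measured 11.80 and 11.79 in fresh cells, 12.14 and 12.06 with DMSO and 11.90 and 11.86 with 79-6, in the same order of groups. It rose by 0.31 ± 0.070 (SE) with DMSO (adjusted p = 0.0204 by limma) and differed by -0.22 ± 0.070 with 79-6 (adjusted p = 0.134). For Eed the values were 9.42 and 9.41 in fresh cells, 9.76 and 9.66 with DMSO and 9.68 and 9.55 with 79-6, with every cultured array above the fresh ones. Eed rose by 0.30 ± 0.078 (SE) with DMSO (limma adjusted p = 0.0368). A second, dim Eed probe set differed by only 0.053 (adjusted p = 0.747 over probe sets), and with the mean of both probe sets Eed was not called. Ezh1, the methyltransferase known from resting cells, measured 9.24 ± 0.089 (SD, n = 2) in fresh cells, 9.11 ± 0.16 with DMSO and 9.40 ± 0.099 with 79-6. Here 79-6 gave the highest values: the differences were -0.13 ± 0.10 (SE) for DMSO against fresh and 0.29 ± 0.10 for 79-6 against DMSO, neither called by limma (adjusted p = 0.473 and 0.169).

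Partner proteins bring PRC2 to its sites. Jarid2 links the complex to ubiquitinated histone H2A, and Mtf2 and Phf19 are Polycomb-like proteins, which bind unmethylated CG-rich DNA or methylated histone H3. Mtf2 fell at both steps, from fresh to DMSO and from DMSO to 79-6. Its log2 values were 12.40 and 12.36 in fresh cells, 11.97 and 11.91 with DMSO and 11.30 and 11.18 with 79-6. No value of one group reached into another, and both 79-6 arrays were the lowest. Mtf2 fell by 0.43 ± 0.077 (SE) on the log2 scale from fresh to DMSO (limma adjusted p = 0.00733). It fell by a further 0.70 ± 0.077 with 79-6, which is 1.63-fold (limma adjusted p = 0.00708). Between fresh and 79-6 cells the fall was 2.20-fold (limma adjusted p = 9.3e-05). The step from DMSO to 79-6 kept its size without any single array, between -0.64 and -0.76, but missed the threshold without DMSO replicate 1 (adjusted p = 0.0671) or DMSO replicate 2 (adjusted p = 0.0584).

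The other 2 partners went the other way in culture. Phf19 measured 8.33 and 8.21 in fresh cells, 8.68 and 8.81 with DMSO and 8.52 and 8.42 with 79-6, lowest in fresh cells, highest with DMSO and between them with 79-6. It rose by 0.48 ± 0.085 (SE) with DMSO (limma adjusted p = 0.00773), and its difference with 79-6 was -0.28 ± 0.085 (adjusted p = 0.127). Jarid2 measured 10.71 and 10.67 in fresh cells, 11.01 and 11.07 with DMSO and 10.94 and 11.01 with 79-6, so that all cultured arrays exceeded the fresh ones and the 2 cultured groups overlapped. Jarid2 rose by 0.35 ± 0.072 (SE) with DMSO (1.27-fold, limma adjusted p = 0.0136).

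Promoters are shown for Ezh2, Suz12 and Phf19, PRC2 genes picked because they rose in DMSO and their windows hold an E2F-type word. Such words are read by E2F, the factor of cell cycle genes. Picked for both traits, these genes do not link the word to the rise. The windows of Eed and Jarid2, which rose too, hold no such word. Those of Arid1a and Dnmt1 hold one, and these genes were not called with DMSO (0.11 and -0.0044). RefSeq promoter windows (GRCm38.p6, 300 bases around a gene's start, mostly upstream, written on the gene's strand) were matched by symbol for 37 of the 41 regulators, as 50 windows among 32851 for all genes. Kdm6b, Kdm5a, Hdac1 and Cbx2 were not matched. The regulators' windows held a median of 29.5 CG pairs, against 7 for all windows, with a range from 2 to 57. Motifs were searched on both strands. The E2F-type word TTTCCCGC lies in 1.07% of all windows and in those of Suz12, Phf19 and Arid1a, and TTTGGCGC lies in 0.514% and in those of Ezh2 and Dnmt1. TTTGGCGG (0.56% of all windows) and the Bcl6-type word TTCCTNGAA (1.59%) were in none of the 50. CACGTG, the E-box read by Myc, was in 5 of the 50 (7.15% of all windows), TGGGAA, a word read by Rbpj, in 7 (25.6%), and CCAAT, read by NF-Y, in 17 (37.4%). TTTGGCGC and TTTGGCGG differ only in their last letter, and each word was counted on its own. Each E2F-type word holds a CG pair, so shares over all windows, which are poorer in CG, are no matched background. Below, capitals mark the E2F-type word, which in Phf19 is read on the opposite strand. The windows are chr6:47594981-47595280 (minus strand) for Ezh2, chr11:79992856-79993155 (plus strand) for Suz12 and chr2:34913927-34914226 (minus strand) for Phf19. A match describes the letters and says nothing of binding.
Ezh2: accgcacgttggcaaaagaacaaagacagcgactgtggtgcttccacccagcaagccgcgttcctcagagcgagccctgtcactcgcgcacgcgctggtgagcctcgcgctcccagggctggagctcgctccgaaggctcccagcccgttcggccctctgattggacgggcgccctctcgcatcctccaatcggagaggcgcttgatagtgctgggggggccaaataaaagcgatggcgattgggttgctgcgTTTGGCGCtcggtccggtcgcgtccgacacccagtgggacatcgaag
Suz12: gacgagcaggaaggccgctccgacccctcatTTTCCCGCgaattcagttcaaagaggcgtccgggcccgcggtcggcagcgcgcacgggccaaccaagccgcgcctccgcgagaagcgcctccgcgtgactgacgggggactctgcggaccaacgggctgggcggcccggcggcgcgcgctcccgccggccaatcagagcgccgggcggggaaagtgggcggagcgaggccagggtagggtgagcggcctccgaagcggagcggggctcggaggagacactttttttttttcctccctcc
Phf19: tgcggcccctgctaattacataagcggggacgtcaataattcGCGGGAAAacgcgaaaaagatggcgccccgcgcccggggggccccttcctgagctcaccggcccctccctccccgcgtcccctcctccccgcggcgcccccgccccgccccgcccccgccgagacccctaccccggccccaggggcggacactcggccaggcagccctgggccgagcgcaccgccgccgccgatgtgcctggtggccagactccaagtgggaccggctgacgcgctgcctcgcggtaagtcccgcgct

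PRC1 is built on a ubiquitin ligase, Rnf2 (Ring1b) or Ring1, with a partner such as Bmi1 and a chromobox protein (Cbx2, Cbx7 or Cbx8) that reads H3K27me3. In DMSO 4 of the 6 PRC1 genes rose, and with 79-6 the only call was the fall of Cbx2. Cbx7, a chromobox protein known from stem and progenitor cells, measured 8.05 and 8.06 in fresh cells, 8.58 and 8.91 with DMSO and 8.71 and 8.68 with 79-6. All 4 cultured arrays were above the fresh ones, with DMSO replicate 2 the highest. Cbx7 rose by 0.69 ± 0.11 (SE), 1.62-fold, with DMSO (limma adjusted p = 0.00451), and 79-6 differed from DMSO by -0.052 ± 0.11 (adjusted p = 0.832). Cbx8 measured 7.58 and 7.65 in fresh cells, 7.96 and 7.93 with DMSO and 8.13 and 8.03 with 79-6, in steps upward without overlap. It was higher by 0.33 ± 0.074 (SE) with DMSO (limma adjusted p = 0.0189) and by 0.46 ± 0.074 in 79-6 against fresh cells (adjusted p = 0.00367). Its difference between 79-6 and DMSO, 0.13 ± 0.074, was not called (adjusted p = 0.375).

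Cbx2, a chromobox protein that also compacts chromatin, rose in DMSO and was lower again with 79-6. Its values were 9.92 and 9.88 in fresh cells, 10.25 and 10.19 with DMSO and 9.85 and 9.78 with 79-6. DMSO was the highest group, and the 79-6 arrays lay just under the fresh ones. Cbx2 rose by 0.32 ± 0.071 (SE) with DMSO (limma adjusted p = 0.0188) and fell by 0.40 ± 0.071 with 79-6, 1.32-fold (adjusted p = 0.0296). This second call was lost without any one of the 6 arrays, with adjusted p from 0.0538 to 0.147 in those limma fits, and when only the 4 cultured arrays were fitted. Rnf2, the main ligase, measured 10.85 and 10.83 in fresh cells, 11.22 and 11.14 with DMSO and 11.09 and 11.08 with 79-6, lowest in fresh cells. Rnf2 rose by 0.34 ± 0.070 (SE) with DMSO (limma adjusted p = 0.0140). Ring1, its relative, differed by -0.14 ± 0.071 (adjusted p = 0.255) and was not called. Bmi1, which activates the ligase and is known for the upkeep of progenitors, measured 9.36 and 9.29 in fresh cells, 9.44 and 9.74 with DMSO and 9.28 and 9.10 with 79-6. Its DMSO replicates stood well apart, and neither its difference with DMSO, 0.26 ± 0.12 (SE), nor that with 79-6, -0.40 ± 0.12, passed the limma test (adjusted p = 0.177 and 0.110).

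Dnmt1 copies DNA methylation after replication with the help of Uhrf1, while Dnmt3a and Dnmt3b place new methylation. In DMSO Dnmt3b and Uhrf1 fell and Dnmt1 and Dnmt3a were not called. Dnmt3b measured 9.10 and 9.18 in fresh cells, 7.34 and 7.22 with DMSO and 7.40 and 7.41 with 79-6. All 4 cultured arrays were far below both fresh ones, and replicates lay close together. The fall of Dnmt3b was -1.86 ± 0.077 (SE), 3.62-fold, with DMSO (limma adjusted p = 1.7e-05), and -1.73 in 79-6 against fresh cells (adjusted p = 1.7e-05). Between 79-6 and DMSO it differed by 0.12 ± 0.077 (adjusted p = 0.420). Dnmt3a, the other enzyme of new methylation, measured 9.55 and 9.52 in fresh cells, 9.55 and 9.57 with DMSO and 9.33 and 9.36 with 79-6, and its difference with DMSO was 0.031 ± 0.068 (adjusted p = 0.820).

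Uhrf1 measured 11.46 and 11.50 in fresh cells, 11.20 and 11.15 with DMSO and 10.86 and 10.78 with 79-6. Its groups did not overlap and stepped down from fresh to DMSO to 79-6. Uhrf1 fell by 0.31 ± 0.071 (SE) with DMSO (limma adjusted p = 0.0224) and by 0.35 ± 0.071 with 79-6 (adjusted p = 0.0425), and stood 1.58-fold lower in 79-6 than in fresh cells (adjusted p = 6.7e-04). The first call was lost when arrays were centred (adjusted p = 0.0655). The second was lost without any one of the 6 arrays, with adjusted p from 0.0640 to 0.180. Dnmt1 measured 12.01 and 11.97 in fresh cells, 11.96 and 12.01 with DMSO and 11.78 and 11.73 with 79-6, and its 79-6 arrays were the lowest. It was lower by 0.24 in 79-6 than in fresh cells (limma adjusted p = 0.0460), which missed the threshold without any one array. The difference of Dnmt1 between 79-6 and DMSO, -0.23 ± 0.070 (SE), was not called (adjusted p = 0.121).

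The promoter windows of the methyltransferase that fell and of the maintenance enzyme are set side by side, since the 2 genes differed in how they moved. In that of Dnmt1, capitals mark the E2F-type word TTTGGCGC, and in that of Dnmt3b they mark each of its 30 CG pairs, the letters these enzymes methylate. The windows are chr9:20952574-20952873 (minus strand) for Dnmt1 and chr2:153649199-153649498 (plus strand) for Dnmt3b, in GRCm38.p6. Dnmt1 has 3 windows in the table, and the one with the word is shown. It holds 33 CG pairs, so the count of CG pairs does not set the Dnmt3b window apart. The part of these letters in the changes was not tested. The arrays measure RNA, so they carry no value for methylation at these letters.
Dnmt1: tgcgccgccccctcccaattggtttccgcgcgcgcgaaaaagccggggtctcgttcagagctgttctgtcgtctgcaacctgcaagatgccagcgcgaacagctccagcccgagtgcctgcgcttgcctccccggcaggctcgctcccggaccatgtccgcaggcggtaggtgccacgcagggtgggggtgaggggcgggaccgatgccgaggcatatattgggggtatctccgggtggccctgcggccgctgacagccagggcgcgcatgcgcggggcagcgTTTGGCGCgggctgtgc
Dnmt3b: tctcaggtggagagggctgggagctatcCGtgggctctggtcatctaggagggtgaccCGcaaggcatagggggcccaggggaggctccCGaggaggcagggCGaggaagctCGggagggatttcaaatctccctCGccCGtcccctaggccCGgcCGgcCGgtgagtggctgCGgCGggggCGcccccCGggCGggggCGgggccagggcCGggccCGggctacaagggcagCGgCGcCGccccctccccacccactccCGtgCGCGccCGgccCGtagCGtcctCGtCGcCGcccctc

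The TET enzymes, which oxidise methylcytosine, moved apart in culture: Tet1 fell, Tet2 rose and Tet3 was not called. Tet1, known from early embryonic and germ cells, measured 10.46 and 10.34 in fresh cells, 9.75 and 10.10 with DMSO and 9.58 and 9.72 with 79-6. Both fresh arrays were above all others, while the DMSO replicates stood well apart. Tet1 fell by 0.48 ± 0.12 (SE) with DMSO (limma adjusted p = 0.0324) and was 1.68-fold lower in 79-6 than in fresh cells (adjusted p = 0.00403). Its 2 other probe sets differed by -0.29 and -0.31 with DMSO and were not called (adjusted p = 0.0679 and 0.225 over probe sets), but both were called lower in 79-6 against fresh cells (adjusted p = 0.00397 and 0.0109). Tet2, the TET enzyme best known in blood cells, measured 8.65 and 8.64 in fresh cells, 8.97 and 9.10 with DMSO and 8.83 and 8.97 with 79-6, with every cultured array above the fresh ones. It rose by 0.39 ± 0.084 (SE) with DMSO (limma adjusted p = 0.0162), and 79-6 differed from DMSO by -0.13 ± 0.084 (adjusted p = 0.427). Tet3 measured 10.37 and 10.34 in fresh cells, 10.35 and 10.30 with DMSO and 10.03 and 10.16 with 79-6. It differed by -0.026 with DMSO, and in 79-6 it was -0.25 from fresh cells (limma adjusted p = 0.0474). A second Tet3 probe set was not called there (-0.17, adjusted p = 0.267 over probe sets).

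Of the histone methyltransferases outside PRC2, 1 of 4 fell. Kmt2a (MLL1), which places the activating H3K4 methylation and opposes Polycomb, measured 11.19 and 11.20 in fresh cells, 10.73 and 10.79 with DMSO and 10.54 and 10.65 with 79-6. Its fresh arrays were the highest and its 79-6 arrays the lowest. Kmt2a fell by 0.44 ± 0.074 (SE) with DMSO, 1.36-fold (limma adjusted p = 0.00613), and was -0.60 in 79-6 against fresh cells (adjusted p = 0.00120). Kmt2d (MLL4), which methylates H3K4 at enhancers, differed by -0.21 with DMSO (adjusted p = 0.0759), and its second probe set by -0.25 (adjusted p = 0.152 over probe sets). Setd2, which methylates H3K36 along transcribed genes, and Dot1l, which methylates H3K79, differed by 0.11 and 0.12 with DMSO and by -0.20 and -0.17 with 79-6. None of these 4 differences of Setd2 and Dot1l passed the limma test (adjusted p from 0.198 to 0.386). A second Setd2 probe set gave 0.24 and -0.17, without a call.

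None of the 5 histone demethylases passed limma's adjusted test in any comparison. At an unadjusted p under 0.05, 2 were higher with DMSO, 2 were lower with 79-6 against DMSO and 1 was lower in 79-6 against fresh cells. These counts, too, stand without a share of all genes. Kdm6a (Utx), which removes H3K27me3, measured 10.52 and 10.73 in fresh cells, 11.11 and 10.93 with DMSO and 10.39 and 10.62 with 79-6. Both DMSO arrays were the highest, and the fresh and 79-6 arrays overlapped. Its differences were 0.39 ± 0.12 (SE) with DMSO and -0.52 ± 0.12 with 79-6 (limma adjusted p = 0.0557 and 0.0568). Kdm6b (Jmjd3), the other H3K27 demethylase, differed by 0.24 ± 0.081 (adjusted p = 0.0840) with DMSO and by -0.17 with 79-6. Kdm5b, which removes H3K4 methylation, measured 10.65 and 10.46 in fresh cells, 10.58 and 10.74 with DMSO and 10.30 and 10.21 with 79-6, and its 79-6 arrays were the lowest of the 6. Kdm5b differed by -0.41 ± 0.096 (SE) between 79-6 and DMSO (limma adjusted p = 0.0631). Kdm6a was called higher with DMSO once arrays were centred, dim genes were left out, trend and robust settings were used, only the 4 arrays compared were fitted, or either 79-6 array was left out, and Kdm6b with centring and with trend and robust settings. Kdm6a and Kdm5b were called lower with 79-6 against DMSO once arrays were centred, dim genes were left out, or trend and robust settings were used, and Kdm5b in 79-6 against fresh cells with the latter 2. Kdm5a is a relative of Kdm5b, and Kdm1a (Lsd1) removes H3K4 methylation as part of corepressor complexes. Both stayed between -0.082 and 0.016 for DMSO against fresh and for 79-6 against DMSO.

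Among deacetylases 2 of 4 rose in DMSO and none was called with 79-6 against DMSO. Hdac7, a class IIa deacetylase that T cell receptor signals move out of the nucleus of thymocytes, measured 10.90 and 10.81 in fresh cells, 11.37 and 11.44 with DMSO and 11.34 and 11.37 with 79-6. All cultured arrays were above the fresh ones, and the 2 cultured groups were close to each other. Hdac7 rose by 0.54 ± 0.073 (SE), 1.46-fold, with DMSO (limma adjusted p = 0.00222) and was 0.49 ± 0.073 above fresh with 79-6 (adjusted p = 0.00267). Sirt1, an NAD-dependent deacetylase, measured 9.37 and 9.35 in fresh cells, 9.86 and 9.93 with DMSO and 9.75 and 9.53 with 79-6, lowest in fresh cells and highest with DMSO. Sirt1 rose by 0.53 ± 0.091 (SE) with DMSO (limma adjusted p = 0.00622), while its 79-6 difference from DMSO was -0.25 ± 0.091 (adjusted p = 0.178). The class I enzymes Hdac1 and Hdac2, catalytic subunits of the Sin3 and NuRD corepressors, differed by 0.061 and 0.053 with DMSO and by -0.086 and -0.21 with 79-6, without a call. A second Hdac1 probe set gave -0.026 and -0.19, also without a call.

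The remodelling complexes use ATP to move nucleosomes. Smarca4 (Brg1), an ATPase of the SWI/SNF complex that thymocytes need for development, measured 12.00 and 11.93 in fresh cells, 11.43 and 11.52 with DMSO and 11.21 and 11.28 with 79-6. Fresh arrays were the highest and 79-6 arrays the lowest, with no overlap. Smarca4 fell by 0.49 ± 0.076 (SE) with DMSO, 1.41-fold (limma adjusted p = 0.00415), and stood 1.65-fold lower in 79-6 than in fresh cells (adjusted p = 6.2e-04). Smarcb1, a core subunit of the same complex, measured 10.43 and 10.42 in fresh cells, 10.22 and 10.15 with DMSO and 10.08 and 10.23 with 79-6, all cultured arrays below the fresh ones. It was called lower in 79-6 against fresh cells (-0.27 ± 0.080, limma adjusted p = 0.0437), and the -0.24 with DMSO was not called (adjusted p = 0.0783). Arid1a, a large subunit that directs SWI/SNF, and the NuRD members Chd4, its ATPase, and Mta2, its scaffold, were not called in any comparison. Their differences lay between -0.084 and 0.13.

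Of the acetyltransferases, Kat2b (Pcaf), a partner of Ep300, fell with DMSO, at a p close to the threshold. It measured 8.31 and 8.35 in fresh cells, 8.01 and 8.02 with DMSO and 8.03 and 7.81 with 79-6, below fresh in every cultured array, with 79-6 replicate 2 the lowest. Kat2b fell by 0.31 ± 0.090 (SE) with DMSO (limma adjusted p = 0.0494), and was -0.41 ± 0.090 in 79-6 against fresh cells (adjusted p = 0.0142). The first call was lost when arrays were centred (adjusted p = 0.113). Ep300 and Crebbp, the paired coactivators that acetylate H3K27 at enhancers, differed by 0.25 ± 0.073 (adjusted p = 0.0513) and -0.053 ± 0.088 (adjusted p = 0.752) with DMSO by limma. With 79-6 they differed by -0.040 and -0.0078. Ep300 was called higher with DMSO once arrays were centred, dim genes were left out, or trend and robust settings were used. With the latter 2 it was also called higher in 79-6 against fresh cells.

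A wider list of 187 other chromatin genes, of which 177 were measured, was read beside the 41. In DMSO 21 rose and 17 fell, 21.5% against the 19.6% of all genes, with a median change of 0.015. The 3 largest of these changes were in Hdac4, Kdm7a and Hdac5. Hdac4, a class IIa deacetylase related to Hdac7, measured 11.86 and 11.75 in fresh cells, 9.79 and 9.81 with DMSO and 9.69 and 9.70 with 79-6. All cultured arrays lay far under the fresh ones, and Hdac4 fell 4.02-fold with DMSO (limma adjusted p = 1.4e-05). Hdac5, of the same class, rose from 6.90 and 7.41 to 8.33 and 8.48 (1.25 ± 0.16 SE, adjusted p = 0.00159), and the cytoplasmic deacetylase Hdac6 fell by 0.75 ± 0.076. Kdm7a, a demethylase of H3K9 and H3K27, rose from 9.89 and 10.01 to 11.25 and 11.24 (2.46-fold, limma adjusted p = 6.0e-05), and Kdm3a, an H3K9 demethylase, rose by 0.61. The nuclear receptor coactivator Ncoa1 rose by 1.15 and the acetyltransferase Kat2a (Gcn5), the relative of Kat2b, fell by 0.64. Among remodellers Bcl7a, a SWI/SNF subunit, fell by 0.95, Chd3, a NuRD ATPase, rose by 0.86, and Smarca2 (Brm), the ATPase that replaces Smarca4, rose by 0.52.

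Polycomb genes outside the 41 gave 2 higher and 3 lower calls of 23 measured in DMSO, and those that fell were Auts2 (-0.56), Phc3 (-0.42) and Pcgf6 (-0.41), all PRC1 subunits. Of 19 other DNA methylation genes only Cxxc5 (-0.37) and Idh2 (-0.32) were called. Of 26 histone methyltransferase genes 5 rose and 1 fell, led by Setd7 (0.50), Ash2l (-0.46), a shared MLL-complex subunit, and Ehmt2 (0.41), which methylates H3K9. The called shares of the Polycomb and methyltransferase lists lay between the 19.6% of all genes and the 27.3% of the 13750 brighter ones. That of the DNA methylation list lay under both. These counts in DMSO are therefore not read as an excess. With 79-6 against DMSO 6 of the 177 were called, 3.39% against 4.36% of all genes, and 135 of 177 lay below 0, with a median of -0.074. Hells, a remodeller needed for DNA methylation, fell by 0.52 ± 0.079 (SE) (limma adjusted p = 0.0195), from 9.98 and 9.94 to 9.52 and 9.36. Mbd4, a repair glycosylase that binds methylated DNA (-0.50), Arid2, a SWI/SNF subunit (-0.44), and Nsd2, an H3K36 methyltransferase (-0.40), fell too. Gadd45g (0.39) and Hdac9 (0.43) rose. In 79-6 against fresh cells 21 of the 177 were higher and 45 lower, 37.3% against 26.0% of all genes and 35.6% of the 13750 brighter ones.

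**Figure D3:**
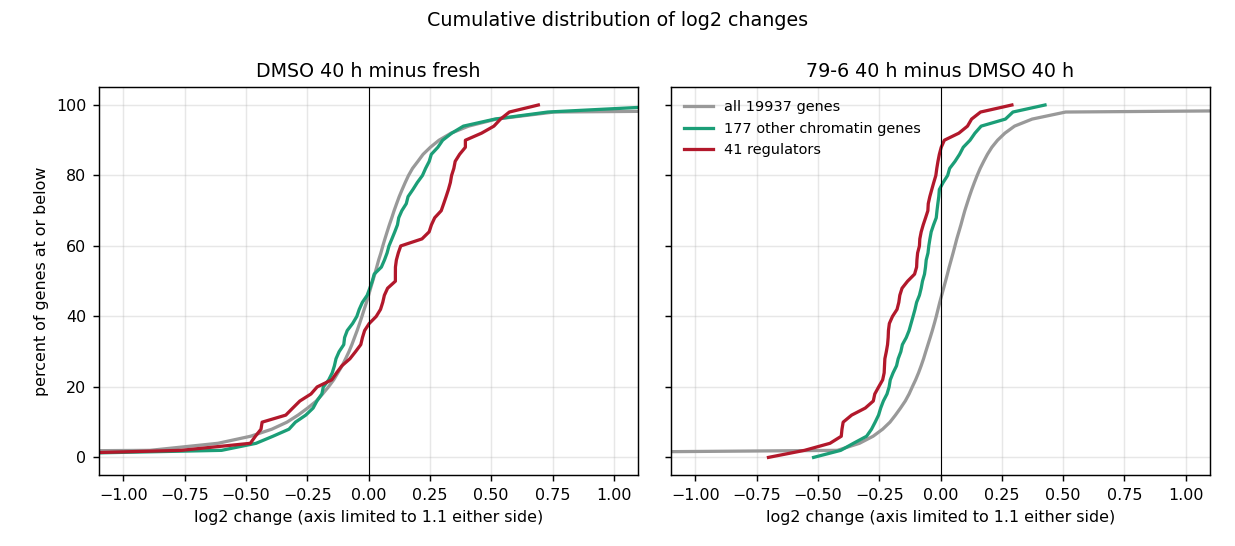
Cumulative distribution of log2 changes for all 19937 genes, the 177 other chromatin genes and the 41 regulators, for DMSO against fresh and 79-6 against DMSO. The regulators' median is 0.11 in the first, where that of all genes is 0.017, and -0.13 in the second, where those of the other chromatin genes and of all genes are -0.074 and 0.020.

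Lists of cell cycle and cell type genes moved in the same comparisons, and their part in the results above was not tested. Ezh2, Uhrf1 and Dnmt1 are themselves known to follow the cell cycle. All 19 measured G2 and mitosis genes rose in DMSO, with a median of 0.67, and their summed intensity, lower array first, was 38148 and 39934 in fresh cells, 62356 and 63809 with DMSO and 52566 and 54251 with 79-6. Of 20 S phase genes 6 rose in DMSO, led by Rrm2 (0.87) and Ccne1 (0.84), while 10 of the 20 lay below 0 and the list's median was 0.034. With 79-6 all 20 lay below 0 and 8 fell, among them Ccne2 (-0.54) and Cdc6 (-0.53), and the sum went from 55521 and 56937 with DMSO to 45841 and 46393, under the 51038 and 51943 of fresh cells.

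Markers of other cell types were present as well. Thymic epithelial genes gave 12 of 13 lower calls in DMSO, and their summed intensity was 12939 and 13315 in fresh cells, 3926 and 5877 with DMSO and 5212 and 5311 with 79-6. Krt8, a keratin of that epithelium, fell from 11.77 and 11.80 to 10.04 and 10.84 (limma adjusted p = 0.00559). Foxn1, which defines that epithelium, fell from 8.20 and 7.91 to 6.62 and 6.93 (adjusted p = 0.00127). Macrophage and dendritic genes gave 5 of 16 higher calls with DMSO, 3 of 16 with 79-6 against DMSO and 13 of 16 in 79-6 against fresh cells. Their sums were 8630 and 12102, then 20590 and 22717, then 28238 and 31260. Lyz2, the lysozyme of myeloid cells, rose by 3.88 with DMSO, and H2-Aa, an MHC class II chain, by 0.72 with 79-6. The summed T-lineage genes were 56276 and 57183, 47707 and 48398, and 49028 and 51060. Granulocyte and mast cell genes gave 6 higher and 1 lower call of 12 with DMSO, and 1 higher and 3 lower with 79-6 against DMSO. Their sums were 4046 and 4619 in fresh cells, 5498 and 5605 with DMSO and 6557 and 8521 with 79-6. These sums join opposite moves. In 79-6 against fresh cells 5 of the 12 were called higher, with changes of up to 5.33 in the list, and 1 lower. The lower one, Cpa3, read 11.45 and 11.56 in fresh cells and 8.29 and 8.64 with 79-6. Erythroid genes gave 1 higher and 2 lower calls of 6 with DMSO and none with 79-6 against DMSO, and their sums were 828 and 1243, then 543 and 543, then 534 and 647. NK and innate-lymphoid genes gave 1 higher and 6 lower calls of 10 with DMSO, and 4 higher and 1 lower with 79-6 against DMSO. B cell genes gave 2 lower calls of 8 with DMSO and 1 higher with 79-6 against DMSO, and mesenchymal and endothelial genes 1 higher and 3 lower of 12, then 1 lower. Only 2 of the 16 macrophage and 3 of the 13 epithelial genes lay below the median gene. Below it, too, were 6 of the 8 B cell, 4 of the 6 erythroid and 6 of the 12 mesenchymal and endothelial genes. For granulocyte and mast cell genes it was 4 of 12, and for NK and innate-lymphoid genes 3 of 10. In such bulk samples fewer cells of a type and less RNA per cell cannot be told apart.

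**Figure D4:**
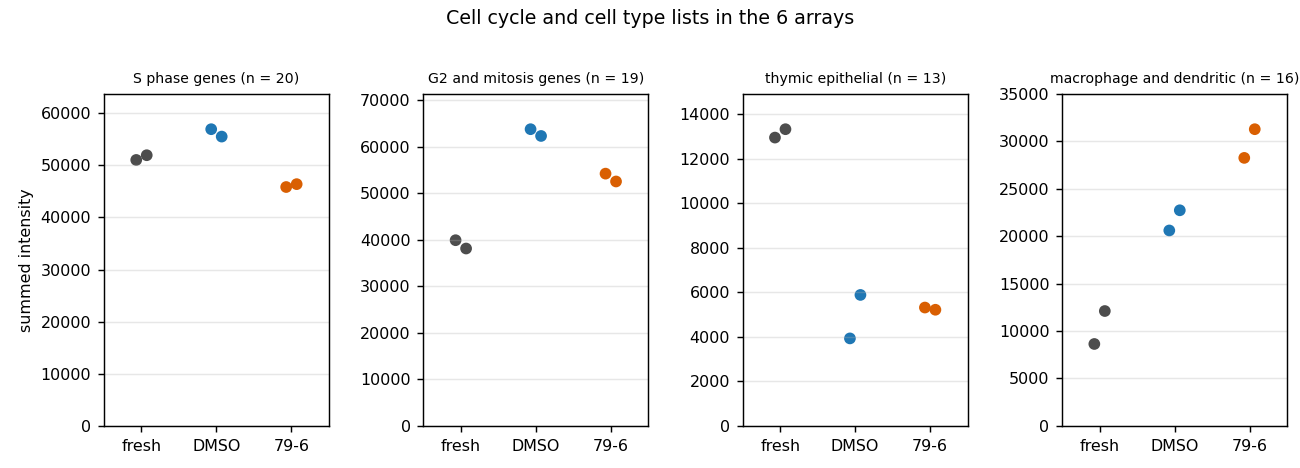
Summed intensity of the measured genes of 4 lists in each of the 6 arrays: S phase (20 genes), G2 and mitosis (19), thymic epithelial (13) and macrophage and dendritic (16). S phase genes are lowest in the 79-6 arrays, mitosis genes lowest and thymic epithelial genes highest in the fresh arrays, and macrophage genes step up from fresh to DMSO to 79-6.

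Bcl6, the target of the inhibitor, measured 7.51 and 7.36 in fresh cells, 8.98 and 9.17 with DMSO and 8.54 and 8.51 with 79-6. It rose by 1.64 ± 0.092 (SE) with DMSO (limma adjusted p = 5.1e-05) and fell by 0.55 ± 0.092 with 79-6 (adjusted p = 0.0251). Its level with 79-6 lay between those of the other 2 groups. The array reads Bcl6 RNA, not the protein that 79-6 binds.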

How the data were processed

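RNA from Thy1.2+ cells of 3 groups of 2 was measured on 6 one-colour arrays. The deposited values are array intensities on a linear scale, made by the authors with RMA in the package oligo, per the submitters' processing notes (versions of both not given in the labels used here). The design had assumed a log2 table, so log2 was computed from the deposited intensities before all tests (8.75 to 25316, log2 3.13 to 14.63). Arrays give no counts, so their number limits the precision.

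Of 34760 probe sets, 21640 carried 1 symbol, 1321 several and 11799 none. The brightest single-symbol probe set stood for each of 19937 genes, of which 954 had more than 1, as had 6 of the 41 regulators. All 6 arrays were fitted together in limma 3.58.1 (R 4.3.3) with 1 mean per group and two-sided contrasts. The fit had 3 residual degrees of freedom, to which limma added 4.24 from its prior. P-values were adjusted over all genes by the Benjamini-Hochberg method, with a threshold of 0.05. SE is limma's standard error. Probe sets behind the main results are 10477325 for Dnmt3b, 10523905 for Mtf2, 10446074 for Uhrf1, 10383055 for Cbx2, 10430649 for Cbx7 and 10544501 for Ezh2. The files name no genome build, so no gene coordinates were used. With 2 arrays against 2, an exact permutation test cannot go below 0.333, so none was used. The script was first tested on simulated data with known answers.

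Every regulator is named, and of the wider lists up to 3 called genes per list and comparison with the largest change. Genes of cell type and cell cycle lists beyond these (Foxn1, Krt8, Lyz2, H2-Aa, Cpa3, Gata3) were chosen after their values were seen. The regulators and all lists were chosen with earlier results of these data known. Promoter windows came from a RefSeq table (GRCm38.p6), used for its sequences only. The alternatives were centring of arrays, a filter on dim genes (log2 of 6 in at least 2 arrays), trend and robust settings, the mean of probe sets, only the 4 arrays compared, a replicate block and leaving out each array.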

Additional observations from a re-analysis of the deposited data

How the results depend on the processing

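No called regulator changed direction under any alternative run. Leaving out 1 array at a time, which leaves a group with 1 array that is assumed to vary like the others, gave 7 to 20 called regulators for DMSO against fresh (3 to 13 higher, 3 to 7 lower), 0 to 1 for 79-6 against DMSO (0 to 1 lower) and 9 to 12 for 79-6 against fresh (3 to 5 higher, 6 to 8 lower). All genes called ran from 2286 to 4070, 93 to 661 and 3081 to 5068 in these fits. For 79-6 against DMSO, the lower calls became 5 with centred arrays, 5 with the filter on dim genes, 10 with trend and robust settings and 1 with only the 4 arrays compared, and the called regulators, all lower, numbered the same. Of all genes, 1140, 1200, 1723 and 631 were called under these settings in the same order, in place of 869. For 79-6 against fresh, higher calls became 8 with the filter and 9 with trend and robust settings, in place of 5. Calls of all genes, in both directions, were then 5501 (of the 13750 brighter genes) and 5686, in place of 5174. The cause was not tested. Deviations of same-numbered arrays correlated at 0.0036, 0.0948 and -0.074. No shared effect of replicate number was seen, but whether the arrays are paired is not known. With the replicate block 18, 2 and 11 regulators were called in the 3 comparisons, in place of 19, 3 and 15. Of all 19937 genes, 3667, 774 and 4852 were called with the block, in place of 3902, 869 and 5174. The calls not made with the block were Kat2b for DMSO against fresh (limma adjusted p = 0.0644), Uhrf1 for 79-6 against DMSO (0.0621), and Rnf2 (0.0628), Smarcb1 (0.0661), Tet3 (0.0728) and Dnmt1 (0.0730) for 79-6 against fresh. With 2 arrays per group and differences mostly under 0.5, many uncalled differences lie within what the arrays could miss, and an uncalled gene is not shown to be level.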

Other observations

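Genes of other lineages and of the thymocyte programme that often carry H3K27me3 were read as well, since PRC2 places that mark, but the mark was not measured here. Of 13 such genes 11 were measured. In DMSO 3 fell and 1 rose. Ebf1, a B cell factor, went from 6.63 and 6.90 to 5.65 and 5.62 (-1.12 ± 0.14 SE, limma adjusted p = 0.00137). Its DMSO values lie under the log2 of 6 used to filter dim genes. In the B cell list, Ebf1 and Blk (-0.81, to 6.15 and 6.16 with DMSO) were the 2 lower calls of 8, and none was higher. The part of B cells in this was not tested. Gata3, which T cells need throughout development, rose by 0.34 (adjusted p = 0.0214).

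Id2, an inhibitor of E proteins known from innate lymphoid cells, measured 11.85 and 12.06 in fresh cells, 11.37 and 11.37 with DMSO and 11.93 and 12.11 with 79-6. It fell by 0.58 with DMSO (limma adjusted p = 0.00618) and rose by 0.65 ± 0.099 (SE) with 79-6 (adjusted p = 0.0193). Zbtb16, the factor of innate-like T cells, measured 8.64 and 8.67 in fresh cells, 8.04 and 8.07 with DMSO and 8.40 and 8.58 with 79-6. It fell by 0.59 with DMSO (limma adjusted p = 0.00250) and rose by 0.43 ± 0.082 with 79-6 (adjusted p = 0.0361). For both genes the 79-6 arrays lay above the DMSO arrays. Markers of NK and innate-lymphoid cells summed to 9412 and 10920 in fresh cells, 8092 and 8142 with DMSO and 9617 and 9864 with 79-6, and their part in these values was not tested.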
